A study of Sus scrofa with 9 samples.

Results

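Porcine hearts donated after circulatory death (DCD) were compared by the length of their storage, 24 h against 2 h, and genes that differed from both groups stored for 2 h alike were sought. Pigs 27, 28 and 30 form Group 1 (NRP + HOPE 24 h), the 3 hearts stored for 24 h. They were set against 6 hearts stored for 2 h, and all 9 hearts of the series were used. The 6 were the 3 of Group 2 (NRP + SCS 2 h; pigs 24, 25 and 29) and the 3 of Group 3 (No NRP + HOPE 2 h; pigs 31, 33 and 34). Per the study's methods, the donors were female Yorkshire pigs of 4 to 6 months, and each heart had 15 min of warm ischemia. Each was rewarmed and perfused with blood for 2 h in normothermic machine perfusion (NMP) before its apex was biopsied. Normothermic regional perfusion (NRP), in which the organs are perfused with warm oxygenated blood inside the donor, lasted 60 min in Groups 1 and 2 and was omitted in Group 3. Hypothermic oxygenated perfusion (HOPE) at 8 °C pumps a cold, oxygenated solution through the coronary vessels, whereas in static cold storage (SCS) at 4 °C the heart lies in cold solution without flow. Group 1 therefore differed from Group 2 in the method, temperature and duration of storage together, and from Group 3 in duration and NRP together. Duration is what both comparisons have in common, and its part cannot be told apart from that of the other differences within either comparison. Each group is 3 pigs with 1 biopsy each, and every value describes tissue after warm reperfusion, not at the end of storage.

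Tissue that is stored cold and then perfused with warm blood typically switches on early inflammatory genes. The transcription factor NF-kB, a dimer of REL family subunits, is held in the cytosol by IkB proteins and released by cytokines, danger signals and oxidants. It drives chemokines, cytokines, the prostaglandin enzyme PTGS2 and its own inhibitors, among them TNFAIP3 (A20) and NFKBIA. In the heart these genes are expressed by endothelial cells, fibroblasts, resident macrophages and myocytes, and chemokines such as CXCL2 and CXCL8 draw neutrophils to reperfused muscle.

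RNA was measured by sequencing of oligo(dT)-selected libraries, and the deposited values are TPM, in which the reads of a gene are divided by its length and all genes of a heart are made to sum to 1000000. Read depth is unknown from TPM, so that precision is given by the spread between hearts. The table listed 25149 genes, of which 11782 reached 1 TPM in 3 or more hearts and were tested. Cardiomyocyte markers summed to 16930 to 31330 TPM and were abundant in every biopsy of the labelled heart muscle. The 5 neutrophil markers listed summed to 1.06 to 15.1 TPM, with the receptor gene CSF3R listed at 0 in all 9 hearts. The 24 h hearts were not alike. The 13 mitochondrially encoded protein genes took 55.4%, 54.7% and 38.2% of TPM in pigs 27, 28 and 30, against 44.8% to 55.0% in the 6 hearts stored for 2 h. The share did not separate the storage times (difference -0.53 percentage points, two-sided exact permutation test of 3 against 6, p = 0.833; no p under 0.0238 can be reached with these numbers). That difference was 5.07 points without pig 30, -3.5 without pig 27 and -3.16 without pig 28, and it was also positive without pig 29 (0.0226) or pig 31 (0.474). On log2(TPM + 1), hearts lay a mean Euclidean distance of 86.0 apart among the 24 h hearts and of 79.8 among the 2 h hearts. The nearest neighbour was another 24 h heart for 1 of the 3 hearts stored for 24 h. It was another 2 h heart for 5 of the 6 hearts stored for 2 h.

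**Figure D1:**
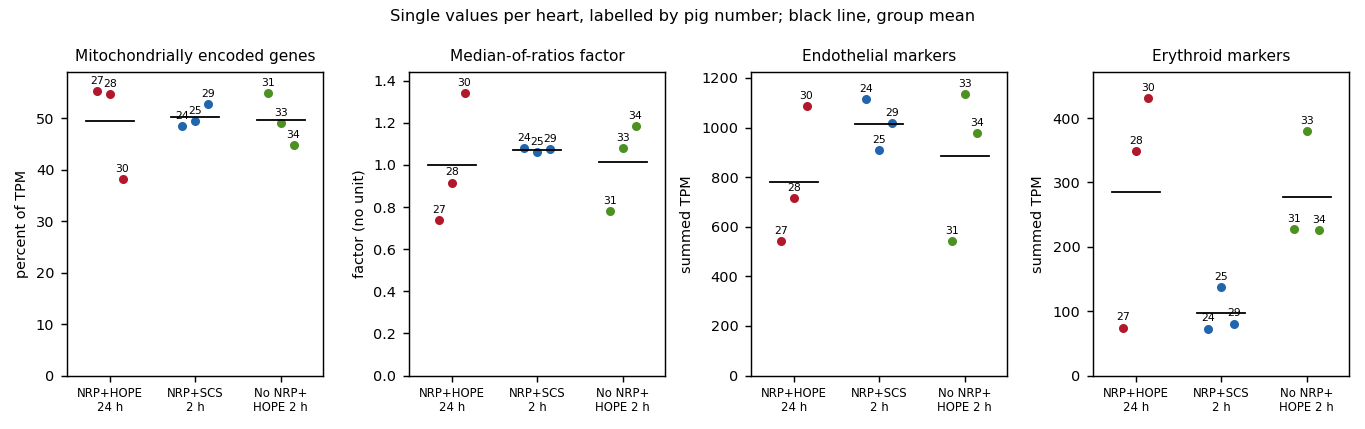
Values of each heart for the share of mitochondrially encoded genes (percent of TPM), the median-of-ratios factor (no unit) and the summed TPM of endothelial and of erythroid markers, by group and labelled with pig numbers, with the black line at the group mean. Pig 30 has the lowest mitochondrially encoded share (38.2%) and the highest factor (1.34), and pig 27 the lowest factor (0.737). The 24 h hearts overlap with each 2 h group in all 4 panels. For erythroid markers, NRP + SCS 2 h (73.0 to 137 TPM) and No NRP + HOPE 2 h (226 to 379 TPM) do not overlap with each other.

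After 24 h, 2 genes (0.0170% of those tested) were higher and 0 were lower than after 2 h, when both an adjusted p under 0.05 and a fold of more than 1 on the log2 scale in either direction were asked for. Log2 fold changes are differences of mean log2(TPM + 1), with 1 mean per group and the mean of Groups 2 and 3 as the 2 h level. Values after ± are standard errors, and p-values are from limma with Benjamini-Hochberg adjustment over all genes tested. Without adjustment, 254 genes (2.16%) were higher and 354 (3.00%) lower at p under 0.05, together 608, where 589 is 5% of the genes tested. That number was 372 without pig 28, 1200 without pig 30 and 1074 with median-of-ratios scaling, so that a count near 5% holds for the fit as described and not for every alternative. Of all genes tested, 60.3% had a negative fold change. Without pig 30 the share was 80.1%, with 1.19% of genes higher and 9.0% lower at an unadjusted p under 0.05, and without pig 27 it was 40.4%, with 4.83% and 1.72%. Without pig 28 it was 55.1% (1.56% and 1.60%), without pig 31 it was 68.0% (1.62% and 5.76%), and under median-of-ratios scaling 49.5% (5.01% and 4.11%). At the same threshold 4.57% were higher and 4.42% lower under quantile normalization, 2.69% and 5.57% with mitochondrially encoded genes left out, and 2.96% and 12.4% with array weights. Numbers of list members under these settings, given further on, stand against these shares. With the fold added, 118 genes (1.0%) were higher and 81 (0.687%) lower. The counts moved with single hearts: at the adjusted threshold 5 were higher without pig 25, 7 without pig 27, 1 without pig 28 and 0 without pig 30. At the same threshold 1 was lower without pigs 25, 29 or 31 and 3 without pig 27. At the unadjusted threshold with the fold, 246 were higher without pig 27, 196 were lower without pig 30 and 183 were lower without pig 31. Higher genes were 59.3% of these 199. Median-of-ratios scaling, which sets 1 factor per heart from genes above 0 in every heart, gave 140 higher and 52 lower, and quantile normalization 137 and 54.

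Against both groups alike, with the same sign, the same fold and an unadjusted limma p under 0.05 in each comparison, 53 genes (0.450%) were higher and 28 (0.238%) lower in the 24 h hearts. Both comparisons use the same 24 h hearts, and the count is therefore a description and not 2 independent findings. Of these 81 genes, 43 carry a symbol, 29 of them higher and 14 lower. By the larger of both p-values, adjusted over all genes tested, 1 gene passed, higher after 24 h (0.00849%), 2 genes without pig 31, and 0 without any 1 of pigs 24, 25, 28, 29, 30, 33 and 34. Leaving out pig 27 gave 115 higher, leaving out pig 30 gave 63 lower, and the numbers were 62 higher and 16 lower under median-of-ratios scaling and 58 and 16 under quantile normalization. Without a model, the 24 h hearts all lay above the 2 h hearts in 69 genes (0.586%) and all below in 167 (1.42%). For any 1 gene, such a separation in either direction has p = 0.0238 in the two-sided exact permutation test of 3 against 6. The numbers of these genes can only rise when a heart is left out. They were 679 higher and 256 lower without pig 27, 129 and 272 without pig 28, and 102 and 1505 without pig 30. They were 81 and 406 without pig 31, 126 and 207 without pig 33, and 106 and 192 without pig 34.

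**Figure D2:**
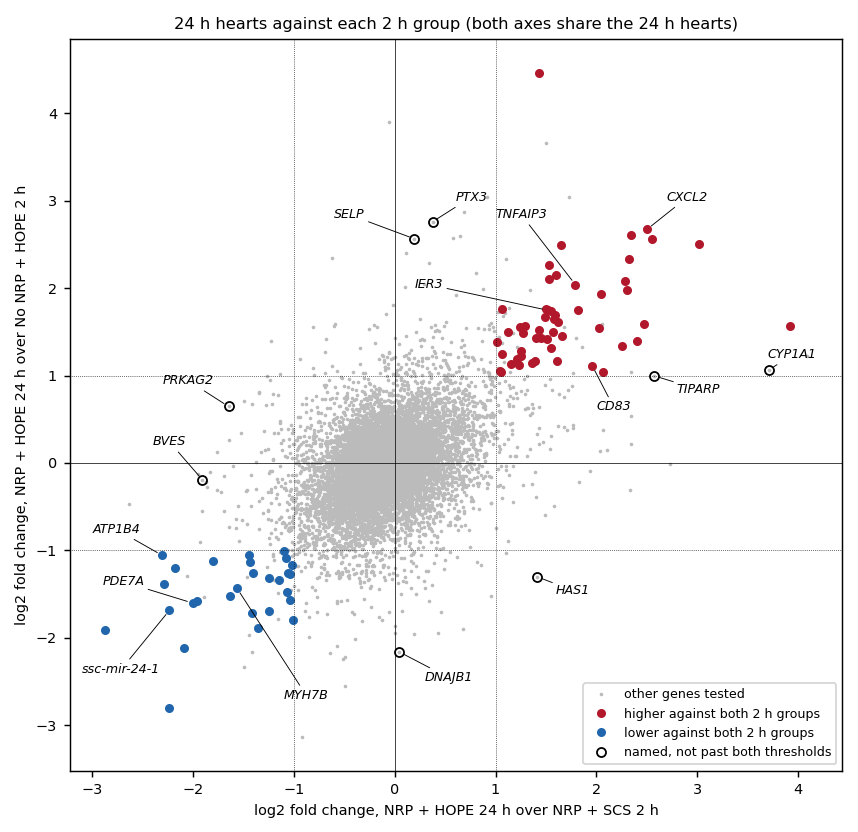
Log2 fold change of each of the 11782 genes tested in the 24 h hearts over NRP + SCS 2 h (horizontal) and over No NRP + HOPE 2 h (vertical), with dotted lines at 1 and -1. The 53 red and 28 blue points passed the unadjusted threshold in both comparisons, and circled genes such as DNAJB1, HAS1, SELP and PTX3 differed from 1 group stored for 2 h far more than from the other, or in opposite directions.

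The 2 genes called at the adjusted threshold were listed at or near 0 after 2 h, and neither is a protein gene with a symbol. ENSSSCG00000025572, which has no symbol in the table, had 4.76, 4.13 and 5.91 TPM in pigs 27, 28 and 30 and was listed at 0 in all 6 hearts stored for 2 h (limma, adjusted p = 0.00227). It is also the gene that passed against both groups alike (limma, adjusted p = 0.0123). Both genes met the filter on low values only through the 24 h hearts, where they are high, so that they could enter the test only as higher genes, and their calls are no support for a rise beyond the values themselves. RF00341, a locus of a short RNA family, had 6.73, 10.5 and 5.01 TPM in the 24 h hearts and was listed at 0 in 5 of the 6 others, with 1.94 TPM in pig 31 of Group 3 (limma, adjusted p = 0.0243). Over the alternatives tried, the adjusted p reached 0.151 (limma) for ENSSSCG00000025572, whose call was lost with a pseudocount of 0.1 and without pig 30, and kept with no filter. It reached 0.184 (limma) for RF00341, whose call was lost in 8 of 18 alternatives. These were no filter on low values, a pseudocount of 0.1, both scalings, mitochondrially encoded genes left out, and each of pigs 27, 28 and 30 left out. Another short RNA locus, RF00325 (ENSSSCG00000029869), had 1.12, 7.28 and 6.24 TPM in the 24 h hearts and was listed at 0 in all others (limma, adjusted p = 0.0649), and it too met the filter only through the 24 h hearts. How many reads lie behind these values cannot be read from TPM. Of the genes past both folds in the comparisons with each group, 15 of the 53 higher reached 1 TPM in fewer than 3 of the 2 h hearts and 12 of the 28 lower in fewer than 3 of the 24 h hearts. Of the genes named, these include the 3 above, ssc-mir-486-2, CAMK2A, FHL5, TMEM52, RF00026 and RF00151. CSF3, which is not among the 81, met the filter in the same way.

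Among protein genes with a symbol, the 2 with the smallest p that were higher after 24 h were IER3 and TNFAIP3, an NF-kB target and an NF-kB inhibitor, and neither passed the adjusted threshold. IER3, an early response gene that NF-kB induces and that modulates cell survival, had 360.4, 709.8 and 596 TPM in the 24 h hearts of pigs 27, 28 and 30. It had 181, 236 and 151 TPM in NRP + SCS 2 h (pigs 24, 25 and 29) and 136, 209.8 and 139 TPM in No NRP + HOPE 2 h (pigs 31, 33 and 34). Every 24 h heart lay above every 2 h heart, and the log2 fold change was 1.63 with a standard error of 0.26 (limma, adjusted p = 0.0616). TNFAIP3, the ubiquitin-editing enzyme A20 that shuts NF-kB signaling off, had 28.7, 57.0 and 42.9 TPM after 24 h, 15.6, 9.58 and 9.38 TPM in NRP + SCS 2 h and 4.94, 13.9 and 11.3 TPM in No NRP + HOPE 2 h. The groups again did not overlap (log2 fold change 1.92 ± 0.34, standard error; limma, adjusted p = 0.0649). Both genes passed the adjusted threshold under some alternatives, IER3 in 5 of 20 and TNFAIP3 in 4 of 20, with adjusted p from 0.0232 to 0.452 and from 0.0263 to 0.478 (limma).

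CD83, a surface protein of activated antigen-presenting cells and an NF-kB target, had 34.1, 50.1 and 98.2 TPM after 24 h, 11.8, 11.2 and 18.4 TPM in NRP + SCS 2 h and 23.7, 28.7 and 22.9 TPM in No NRP + HOPE 2 h. All 24 h hearts were above all others, and both groups stored for 2 h also stood apart from each other, with NRP + SCS 2 h the lowest. Against NRP + SCS 2 h the log2 fold change was 1.96, and against No NRP + HOPE 2 h it was 1.11 (limma, unadjusted p = 0.000111 and 0.009). Against the mean of both groups its adjusted p was 0.182 (limma).

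**Figure D3:**
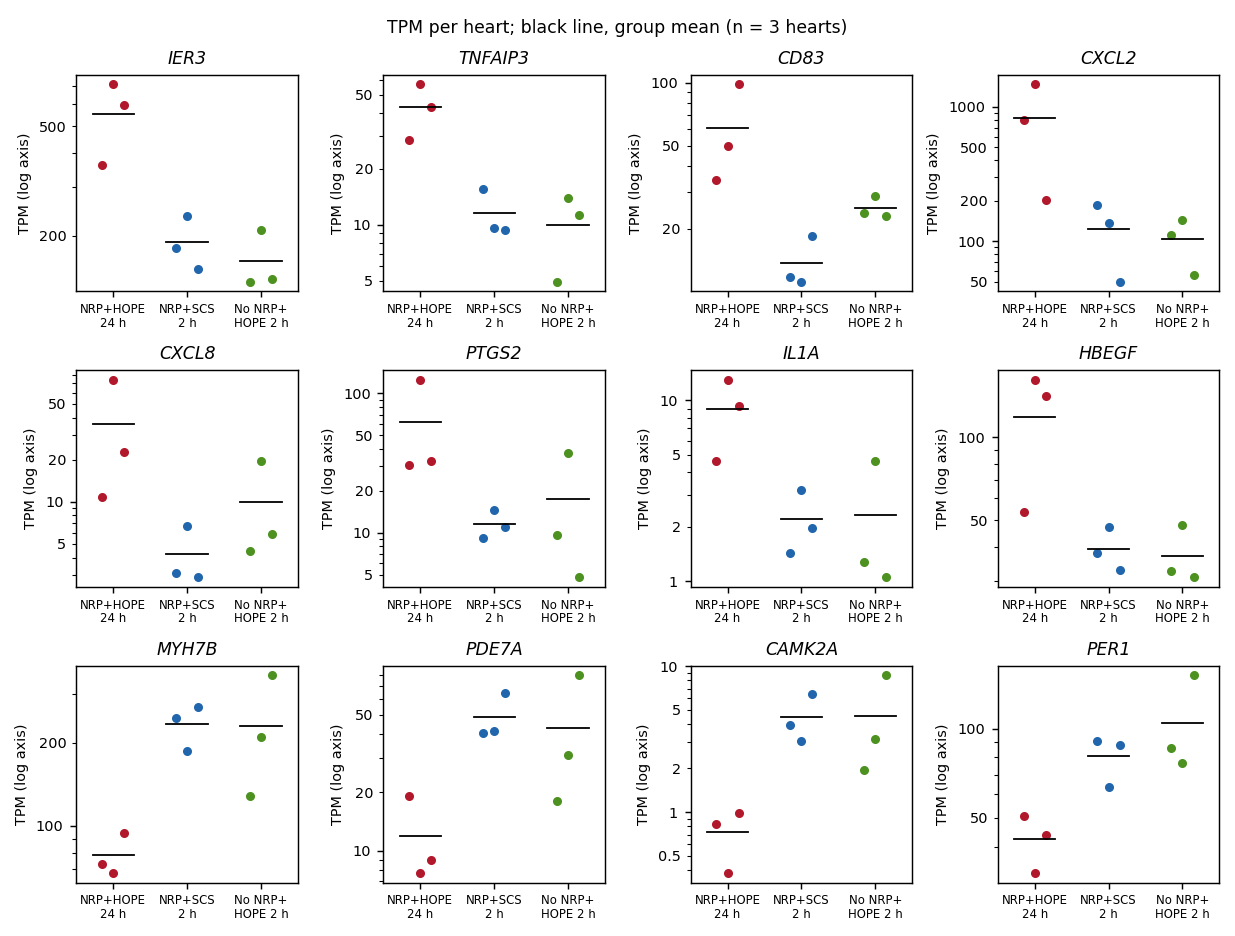
TPM of each heart (points, log axis) for 8 genes that were higher and 4 that were lower after 24 h, with the group mean of 3 hearts as a black line. In all but CXCL8, PTGS2 and PDE7A the 24 h hearts lie entirely above or entirely below the 6 hearts stored for 2 h.

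The NF-kB list held 30 genes, of which 21 were in the table by symbol and 20 were tested. At an unadjusted limma p under 0.05, 10 were higher after 24 h, against 2.16% of all genes tested, and 0 were lower. Their median log2 fold change was 0.53 (0.45 against NRP + SCS 2 h and 0.54 against No NRP + HOPE 2 h), where the median of all genes was -0.07, and 6 of the 20 had all 24 h hearts above all others, against 0.586% of all genes (679 genes without pig 27). Without pig 29 of Group 2 the number was 6, and over the other hearts left out it was 7 to 11. The list median was 0.39 to 0.68 over the hearts left out, and the median of all genes was 0.09 without pig 27 and -0.27 without pig 30. The list was written with earlier results of these data known, and 3 of its members, IER3, TNFAIP3 and CD83, had been singled out from them. These 3 were also the only members higher against each 2 h group with both folds and both unadjusted p (limma), against 0.450% of all genes. Of the 10, NFKB1, NFKB2, NFKBIZ, TNIP1, TRAF1 and RIPK2 were not under an unadjusted p of 0.05 against both groups (limma).

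By role, 3 of the 4 subunits tested were among the 10. REL, the c-Rel subunit, had 12.6, 14.3 and 17.6 TPM after 24 h, 7.25, 6.53 and 6.09 TPM in NRP + SCS 2 h and 4.93, 9.64 and 10.3 TPM in No NRP + HOPE 2 h, without overlap (log2 fold change 0.93 ± 0.28; limma, adjusted p = 0.546). NFKB1, which encodes p105 and p50, had 10.6 to 25.4 TPM after 24 h and 3.68 to 11.2 TPM after 2 h, and the groups overlapped. Its log2 fold change was 1.04 ± 0.34, with 0.67 against NRP + SCS 2 h and 1.41 against No NRP + HOPE 2 h. NFKB2, which encodes p100 and p52, ranged from 36.7 to 60.3 TPM against 23.7 to 34.1 TPM, without overlap but with a log2 fold change of 0.55. RELA, the p65 subunit whose activity is set mainly by its release and modification, was at 0.04 on that scale. The 4 subunits therefore spanned from 0.04 to 1.04.

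Of the 10 feedback inhibitors tested, 3 were among those at an unadjusted p under 0.05. These were TNFAIP3, its partner TNIP1 (log2 fold change 0.81 ± 0.25) and NFKBIZ (IkB zeta; 0.64 ± 0.29). TNIP1 differed mostly from No NRP + HOPE 2 h (1.21) and less from NRP + SCS 2 h (0.41), and NFKBIZ likewise (0.86 and 0.42). NFKBIA, the IkB alpha that NF-kB resynthesizes within minutes of activation, had 340.4, 391 and 256 TPM after 24 h and 177 to 312 TPM after 2 h (log2 fold change 0.52; limma, unadjusted p = 0.0514). All 6 targets in the list had a positive fold change, as had 39.7% of all genes. Besides IER3 and CD83, the unadjusted threshold was passed by the signaling adaptor TRAF1 (0.82 ± 0.31, without overlap) and the kinase RIPK2, which acts below the NOD receptors (0.60 ± 0.27).

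The listed chemokines, cytokines and prostaglandin enzymes had log2 fold changes from -0.88 to 2.59, with CXCL2 the highest. CXCL2, a ligand of the neutrophil receptor CXCR2, had 804, 1468 and 202 TPM in pigs 27, 28 and 30, 185, 137 and 50.1 TPM in NRP + SCS 2 h and 111, 144 and 56.1 TPM in No NRP + HOPE 2 h. The 24 h hearts were all above the others, but pig 30 exceeded the highest 2 h heart by little (log2 fold change 2.59 ± 0.55; limma, adjusted p = 0.188). CXCL8 (interleukin 8), which acts on the same receptor, had 10.8, 74.2 and 22.8 TPM, 3.08, 6.67 and 2.90 TPM and 4.47, 19.6 and 5.90 TPM in the same order of groups. Here pig 33 of Group 3 lay above pig 27, and pig 28 was far the highest of the 24 h hearts (log2 fold change 2.03 ± 0.53; limma, adjusted p = 0.383). CCL2, the monocyte chemokine MCP-1, was abundant everywhere, with 2339.8, 4867 and 2844 TPM after 24 h and 1152 to 2579 TPM after 2 h. Its log2 fold changes of 0.95 and 0.91 against Groups 2 and 3 were close to each other, and pig 33 again overlapped with the 24 h hearts.

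IL1A, the alarmin interleukin 1 alpha, had 4.65, 13.0 and 9.35 TPM after 24 h, 1.44, 3.22 and 1.97 TPM in NRP + SCS 2 h and 1.29, 4.63 and 1.06 TPM in No NRP + HOPE 2 h. Pig 27, the lowest of the 24 h hearts, and pig 33, the highest of the others, nearly met (log2 fold change 1.61 ± 0.39; limma, adjusted p = 0.296). PTGS2, the inducible cyclooxygenase COX-2, had 30.4, 124 and 32.6 TPM after 24 h, 9.19, 14.5 and 10.9 TPM in NRP + SCS 2 h and 9.58, 37.5 and 4.79 TPM in No NRP + HOPE 2 h. Apart from pig 33 at 37.5 TPM the 2 h hearts were at or below 14.5 TPM, and the fold changes were 2.04 and 1.94 against Groups 2 and 3 (limma, adjusted p against the mean of both groups = 0.435). PTGES, the prostaglandin E synthase that works with it, was higher by 0.77 ± 0.30.

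The cytokine oncostatin M (OSM) was higher by 0.60 ± 0.26 on the log2 scale, with 5.02, 4.90 and 5.64 TPM after 24 h and at most 3.86 TPM in any 2 h heart. TLR4, the receptor for endotoxin and tissue danger signals, had 6.39, 4.73 and 9.33 TPM after 24 h and 2.02 to 4.18 TPM after 2 h, without overlap (0.92 ± 0.28). CSF3, the granulocyte colony-stimulating factor, was less even. It had 4.29, 31.5 and 4.85 TPM after 24 h, 18.3, 3.48 and 0.728 TPM in NRP + SCS 2 h and 0, 0.817 and 0 TPM in No NRP + HOPE 2 h. The difference from Group 3 (3.04) was the larger, against 0.92 from Group 2. Of 53 such genes listed, 39 were in the table and 34 tested. Of these, 9 were higher at an unadjusted limma p under 0.05, against 2.16% of all genes, and 0 lower, with a median log2 fold change of 0.19 against -0.07. Of the list, CXCL2, CXCL8, PTGS2 and IL1A had been named from earlier results of these data. They were also the 4 members higher against each 2 h group with both folds and both unadjusted p (limma), against 0.450% of all genes. One of the 9 is CSF3, which reached 1 TPM in 2 of the 6 hearts stored for 2 h and met the filter only with 24 h hearts counted. Without pig 28 the number higher was 5, and over the other hearts left out 7 to 11. The median was 0.44 without pig 27 and 0.01 without pig 30, where 17 members were positive, 17 negative and 3 lower at an unadjusted p under 0.05. TNF itself, the prototype inducer of NF-kB, was at -0.28 on the log2 scale. The receptors and adaptors other than TLR4 ranged on both sides of 0, as the plot of both lists shows.

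**Figure D4:**
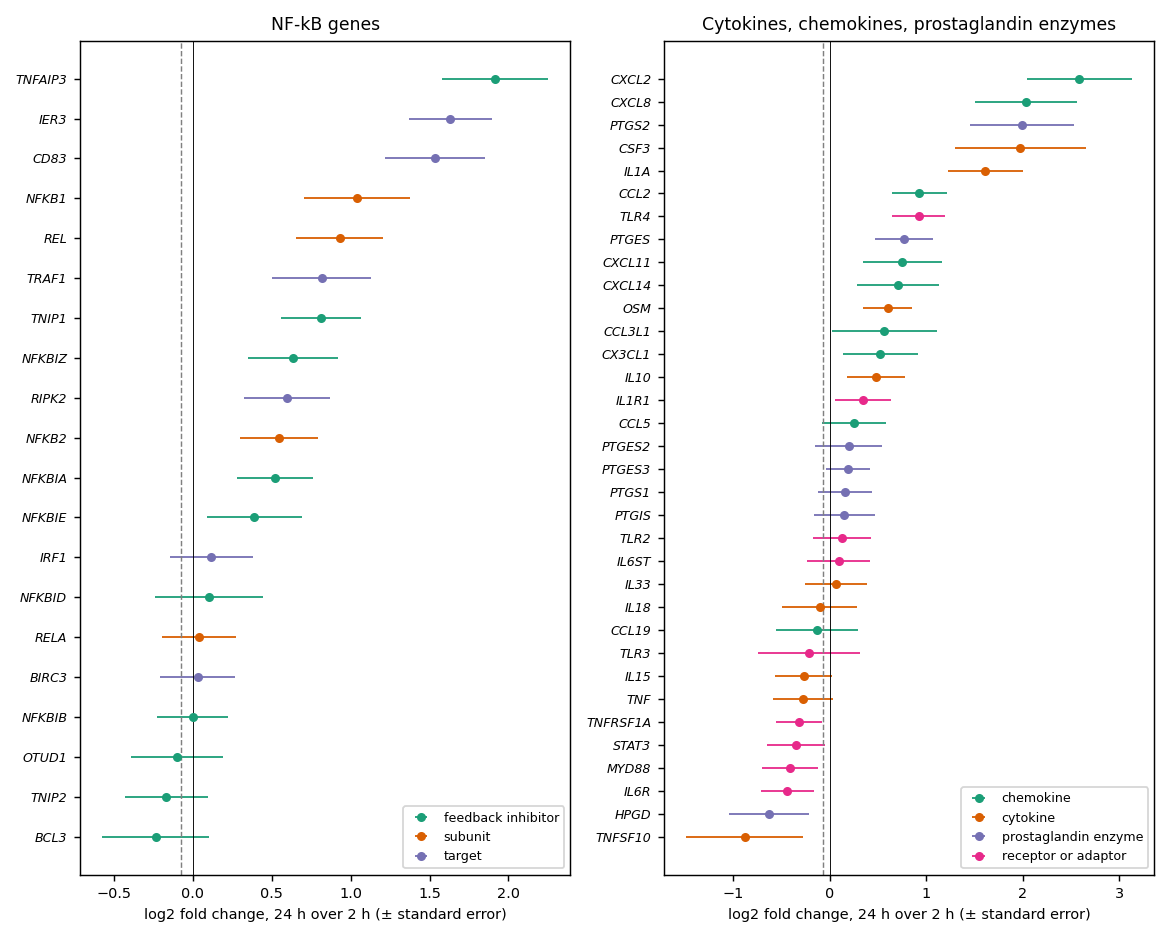
Log2 fold change of the 24 h hearts over the 2 h hearts with its standard error (bars) for the 20 NF-kB genes (left) and the 34 cytokine, chemokine and prostaglandin genes (right) tested, coloured by role. The dashed line is the median of all genes tested (-0.07), and members range from TNFAIP3 at 1.92 down to BCL3 at -0.23 on the left and from CXCL2 at 2.59 down to TNFSF10 at -0.88 on the right.

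Several further genes of signaling and stress were higher against both groups, none at an adjusted p under 0.05. HBEGF, an EGF receptor ligand shed from injured cells, had 53.3, 161 and 141 TPM after 24 h, 38.0, 47.0 and 33.0 TPM in NRP + SCS 2 h and 32.6, 47.9 and 31.0 TPM in No NRP + HOPE 2 h. Pigs 28 and 30 were well above the rest and pig 27 was close to the highest 2 h hearts (log2 fold change 1.48 ± 0.33; limma, adjusted p = 0.232). ADORA2A, the receptor through which adenosine dilates coronary vessels and dampens leukocytes, had 7.21, 15.6 and 11.3 TPM after 24 h and 1.99 to 5.44 TPM after 2 h. The groups did not overlap (1.43 ± 0.32). VASH2, a tubulin carboxypeptidase that promotes vessel growth, had 8.06, 13.0 and 26.3 TPM after 24 h against 2.85 to 5.67 TPM. RXFP4, a receptor of the relaxin family, had 3.63, 4.53 and 9.71 TPM against 0.425 to 2.01 TPM. Both were without overlap, with log2 fold changes of 1.53 and 1.63.

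The metallothioneins, small proteins that bind zinc and are induced by metals, glucocorticoids and oxidants, were higher by 1.31 ± 0.32 (MT1X) and 1.25 ± 0.35 (MT1A) on the log2 scale. MT1X had 756, 555 and 1102 TPM after 24 h and 162 to 484 TPM after 2 h, and MT1A 174, 126 and 198 TPM and 31.7 to 129.6 TPM. MT1X did not overlap, and in MT1A pig 33 (129.6 TPM) lay above pig 28. Metallothionein genes are close copies of one another. Per the study's methods, reads placed at 1 site alone were counted, and how many were dropped at these copies is not known from TPM. THOC6, a subunit of the THO mRNA export complex, had 177, 197 and 241 TPM after 24 h and 50.5 to 118 TPM after 2 h. HCFC1R1, which binds the host cell factor HCF-1, had 74.6, 90.3 and 89.8 TPM and 17.7 to 48.2 TPM. Both stood apart without overlap (1.42 ± 0.30 and 1.46 ± 0.31; limma, adjusted p = 0.188 for each). In the RefSeq annotation of Sscrofa11.1 these genes overlap, and since the library kit does not mark strand, their values cannot be told apart fully.

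Among genes lower after 24 h against both groups, none passed the adjusted threshold. MYH7B, a slow myosin heavy chain gene of heart and skeletal muscle, had 73.0, 67.8 and 94.2 TPM after 24 h, 247, 187 and 268 TPM in NRP + SCS 2 h and 128, 210.2 and 350.5 TPM in No NRP + HOPE 2 h. All 24 h hearts were below all others (log2 fold change -1.50 ± 0.29; limma, adjusted p = 0.131), and the fold changes against Groups 2 and 3 were -1.56 and -1.44. CAMK2A, the calmodulin-dependent kinase isoform known best from neurons, was low throughout, with 0.825, 0.384 and 0.987 TPM after 24 h and 1.95 to 8.62 TPM after 2 h, also without overlap (-1.58 ± 0.37). PDE7A, a phosphodiesterase specific for cyclic AMP, had 19.1, 7.74 and 8.98 TPM after 24 h, 40.1, 41.3 and 64.4 TPM in NRP + SCS 2 h and 18.1, 31.0 and 79.6 TPM in No NRP + HOPE 2 h. Pig 27 lay just above the lowest heart of Group 3, pig 31 (-1.80 ± 0.41; limma, adjusted p = 0.232).

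ATP1B4, a member of the sodium pump beta subunit family that in mammals sits in the nuclear membrane of muscle, had 5.20, 8.64 and 2.88 TPM after 24 h, 40.6, 17.1 and 36.5 TPM in NRP + SCS 2 h and 7.0, 12.2 and 18.8 TPM in No NRP + HOPE 2 h. It stood well below Group 2 (-2.31) and overlapped with Group 3 (-1.06). ATP1B1, the beta subunit of the pump at the cell surface, was higher by 0.75 ± 0.29. ALS2CL, a relative of the guanine nucleotide exchange factor alsin, was lower (log2 fold change -1.30 ± 0.30) without overlap. TMEM204, a membrane protein of endothelial junctions, was lower (log2 fold change -1.47 ± 0.38) with pig 30 (24.1 TPM) above pig 31 (17.0 TPM). DEPP1, a FOXO target, and PM20D2 were lower without overlap (-1.63 and -1.24). For DEPP1, pig 34 of Group 3 stood at 398 TPM and pigs 31 and 33 at 63.6 and 54.3 TPM. The p53 target PHLDA3 (-1.29), TMEM52 (-1.08) and FHL5 (-1.10), a LIM-domain coactivator, completed the protein genes named here, all with overlap.

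Short RNA loci made up 7 of the 53 genes higher and 3 of the 28 lower against both groups. Of all 11782 genes tested, 11470 remained with short RNA loci left out. The precursor locus ssc-mir-24-1 had 8.25, 6.14 and 2.19 TPM after 24 h, 31.3, 24.6 and 25.7 TPM in NRP + SCS 2 h and 17.0, 17.7 and 19.9 TPM in No NRP + HOPE 2 h. It was lower in all 24 h hearts (log2 fold change -1.96 ± 0.32; limma, adjusted p = 0.0616). The locus ssc-mir-486-2 was higher, with 5.17, 2.70 and 3.85 TPM after 24 h and at most 1.94 TPM in any 2 h heart (1.78 ± 0.42). ssc-mir-29b-2, which is not among the 28 because it did not pass against Group 2 (limma, unadjusted p = 0.0551), ranged from 2.73 to 38.8 TPM after 24 h against 17.6 to 88.4 TPM (-1.79 ± 0.58, with overlap). RF00026 (ENSSSCG00000026500), of the U6 spliceosomal RNA family, was at 8.0, 1.04 and 0 TPM against 8.35 to 28.5 TPM (-2.52). RF00151 (ENSSSCG00000030194), a small nucleolar RNA family, was at 13.3, 0 and 0 TPM against 1.91 to 24.4 TPM (-2.40). Libraries of oligo(dT)-selected RNA do not capture mature microRNAs, and these values are levels of reads at the precursor loci.

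Clock, immediate early and hormone-responsive genes gave single members on either side. PER1, a clock repressor that is also a direct glucocorticoid target, had 50.6, 32.6 and 43.7 TPM after 24 h, 91.3, 63.5 and 88.3 TPM in NRP + SCS 2 h and 85.9, 76.4 and 151 TPM in No NRP + HOPE 2 h. Every 24 h heart lay below every 2 h heart (log2 fold change -1.08 ± 0.27; limma, adjusted p = 0.349), and it was the only 1 of 13 clock genes tested with an unadjusted p under 0.05, where 3.00% of all genes were lower. ARNTL (BMAL1), the activator whose cycle runs opposite to the PER genes, had 1.41, 6.75 and 10.7 TPM after 24 h and 1.73 to 4.30 TPM after 2 h (0.61 ± 0.43; limma, unadjusted p = 0.179). NR4A2, an orphan nuclear receptor of the immediate early class, had 5.87, 4.65 and 4.46 TPM after 24 h and 6.38 to 16.3 TPM after 2 h, below all others (-1.08 ± 0.30). Of 21 immediate early genes tested, FOSL1, an AP-1 subunit (0.89 ± 0.33), and DUSP10, a phosphatase of p38 and JNK (0.81 ± 0.33), were the 2 higher at an unadjusted limma p under 0.05 and NR4A2 the 1 lower, where the shares of all genes were 2.16% and 3.00%. The number higher was 0 without pig 28 or pig 30 and 1 without pig 29 or pig 31, and the number lower was 2 without pig 27.

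Of 12 genes tested around the glucocorticoid receptor, 1 on the receptor side and 11 targets, 2 were higher at an unadjusted limma p under 0.05, MT1A and ANGPTL4, and 1, PER1, was lower. The shares of all genes were 2.16% and 3.00%. Without pig 27 the numbers were 3 and 1, without pig 30 or pig 33 they were 2 and 2, and without pig 31 they were 2 and 3. ANGPTL4, an inhibitor of lipoprotein lipase that fatty acids, hypoxia and glucocorticoids all induce, had 232, 184 and 244 TPM after 24 h, 107, 93.2 and 34.3 TPM in NRP + SCS 2 h and 127, 126 and 123 TPM in No NRP + HOPE 2 h. The 24 h hearts were above all others (1.21 ± 0.31; limma, adjusted p = 0.373), by 1.63 against Group 2 and 0.79 against Group 3. Of 20 sarcomere and stretch genes tested, 2 were higher at an unadjusted limma p under 0.05, against 2.16% of all genes, and 0 lower. They were NPPB, which encodes the natriuretic peptide BNP, and the stretch-responsive ANKRD2, each at 1.62 on the log2 scale (limma, adjusted p = 0.946 and 0.688), and the number was 0 without pig 30, 1 without pig 24, 28 or 31 and 5 without pig 27 (4.83% of all genes). NPPB varied widely, with 9.88, 49.4 and 76.9 TPM after 24 h and 2.56 to 32.8 TPM after 2 h, and ANKRD2 differed by 2.59 from Group 3 and by 0.65 from Group 2. TXNRD1, the thioredoxin reductase that NRF2 induces, was higher by 0.62 ± 0.26, and of 13 genes of that list it alone was past the unadjusted threshold, against 2.16% of all genes higher. The number was 4 under median-of-ratios scaling (5.01% of all genes) and quantile normalization (4.57%), 3 without pig 27 (4.83%), and 0 with array weights and without any 1 of pigs 28, 29, 30 and 34.

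Genes of the vessel wall were found on both sides. THBD (thrombomodulin), which turns thrombin into an anticoagulant on intact endothelium, had 88.7, 151 and 162 TPM after 24 h, 180.5, 228 and 242 TPM in NRP + SCS 2 h and 190.2, 352 and 197 TPM in No NRP + HOPE 2 h. It was below all 2 h hearts (log2 fold change -0.80 ± 0.27; limma, adjusted p = 0.688). NOS3, the endothelial nitric oxide synthase, was lower (log2 fold change -0.81 ± 0.28), with pig 30 at 48.2 TPM between hearts of Group 3. PLAT, the tissue plasminogen activator, was higher by 0.90 ± 0.29, with 224, 318 and 366 TPM after 24 h and 98.5 to 245 TPM after 2 h. PLAU (urokinase) was higher by 1.10 ± 0.34, with 1.77 against Group 2 and 0.44 against Group 3. The plasminogen activator inhibitor SERPINB2 was higher by 0.96 ± 0.41. In all, 5 of the 21 vessel wall genes tested were higher and 3 lower at an unadjusted limma p under 0.05, where the shares of all genes were 2.16% and 3.00%. Without pig 27 the numbers were 5 and 0, without pig 28 they were 3 and 2, and without pig 30 they were 2 and 4. Against each 2 h group with both folds and both unadjusted p (limma), 0 were higher and 0 lower, where 0.450% and 0.238% of all genes were. The higher genes include the adhesion molecules SELP and VCAM1. These differed by 2.56 and 1.32 from Group 3 and by 0.20 and 0.37 from Group 2.

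Endothelial markers had negative fold changes in 12 of 12 members, in 10 of 12 with median-of-ratios scaling and in 6 of 12 without pig 27, where the shares of all genes were 60.3%, 49.5% and 40.4%. Their median was -0.22 (-0.44 against NRP + SCS 2 h and -0.06 against No NRP + HOPE 2 h). TEK, the angiopoietin receptor, and CLEC14A were the 2 with an unadjusted limma p under 0.05 (-0.71 ± 0.30 and -0.75 ± 0.32), against 3.00% of all genes. That number was 4 without pig 30, 3 without pig 31, 1 without pig 25 or pig 28, and 0 without any 1 of pigs 27, 29, 33 and 34. The summed level of the 12 was 541, 716 and 1085 TPM in pigs 27, 28 and 30 and 541 to 1136 TPM in the 2 h hearts (two-sided p = 0.357 in the exact permutation test). The part of these levels in the lower THBD and NOS3 was not tested. In bulk tissue, fewer cells of a type and less RNA per cell cannot be told apart. Of the smooth muscle and pericyte markers, ACTA2 was lower (log2 fold change -0.98 ± 0.31), and 0 of the 7 other members tested had an unadjusted p under 0.05, with MYH11, a defining marker, listed at 0 in all 9 hearts. The number lower in that list of 8 was 5 without pig 30 (9.0% of all genes lower), with mitochondrially encoded genes left out (5.57%) and with array weights (12.4%). It was 3 without pig 31 (5.76%) and under median-of-ratios scaling (4.11%) or quantile normalization (4.42%), and 0 without pig 27 (1.72%). Macrophage markers summed to 74.9 to 168 TPM after 24 h and 93.2 to 233 TPM after 2 h. In the same order, lymphocyte markers summed to 10.7 to 34.2 TPM and 12.8 to 33.3 TPM, and erythroid markers to 74.6 to 431 TPM and 73.0 to 379 TPM. Over all 10 marker lists the exact two-sided p of the summed level ranged from 0.357 to 0.952, none of which separates the storage times.

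Some genes that differed strongly from 1 of the groups stored for 2 h did not differ alike from both, and averaging these groups hides that. DNAJB1, the HSP40 cochaperone that heat shock factor 1 induces, had 45.5, 38.4 and 43.8 TPM after 24 h, 38.0, 42.5 and 43.5 TPM in NRP + SCS 2 h and 310.2, 123 and 189 TPM in No NRP + HOPE 2 h. The 24 h hearts overlapped with Group 2 (log2 fold change 0.04 ± 0.32) and lay below Group 3 (-2.16 ± 0.32), and Group 3 differed from Group 2 (limma, adjusted p = 0.0228). HAS1, which makes hyaluronan, had 24.1, 43.5 and 49.0 TPM after 24 h, between the 16.4, 9.88 and 14.6 TPM of NRP + SCS 2 h and the 90.3, 145 and 62.0 TPM of No NRP + HOPE 2 h (Group 3 against Group 2, limma, adjusted p = 0.021). PRKAG2, a regulatory subunit of AMP-activated kinase, had 52.1, 81.0 and 127 TPM after 24 h, 238, 239 and 297 TPM in NRP + SCS 2 h and 59.3, 56.6 and 40.8 TPM in No NRP + HOPE 2 h. Here both HOPE groups were below SCS, and the 24 h hearts differed from Group 2 by -1.65 and from Group 3 by 0.65 (Group 3 against Group 2, limma, adjusted p = 0.021).

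Other genes followed the same divisions without an adjusted p under 0.05 between the groups stored for 2 h. SELP (P-selectin), with which endothelium and platelets catch leukocytes, had 27.3 ± 5.30 TPM (SD, n = 3) after 24 h, 24.7 ± 9.65 in NRP + SCS 2 h and 4.76 ± 4.38 in No NRP + HOPE 2 h. PTX3, a secreted pentraxin that stabilizes hyaluronan matrix and opsonizes debris, had 100.4 ± 26.7, 85.0 ± 44.5 and 14.6 ± 7.25 TPM in the same order. The matrix protein tenascin C (TNC) had 12.7 ± 3.0, 7.24 ± 4.06 and 2.66 ± 2.95 TPM. In these genes, in the adhesion molecule VCAM1 (0.37 and 1.32 against Groups 2 and 3) and in the stress gene SESN2 (0.29 and 2.04), the fold change against No NRP + HOPE 2 h was the larger. The reverse held for BVES, a membrane protein of the Popeye family that binds cyclic AMP, which was at 6.02 ± 0.167 TPM (SD, n = 3) after 24 h, 26.0 ± 7.31 TPM in NRP + SCS 2 h and 7.33 ± 2.86 TPM in No NRP + HOPE 2 h. RUSC2 was placed likewise (-1.95 and -0.13 against Groups 2 and 3).

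CYP1A1 and TIPARP, both targets of the aryl hydrocarbon receptor, a sensor of aromatic ligands, differed more from NRP + SCS 2 h than from No NRP + HOPE 2 h. CYP1A1 had 32.8, 52.3 and 72.1 TPM after 24 h, 3.78, 5.55 and 0.863 TPM in NRP + SCS 2 h and 12.6, 9.12 and 104 TPM in No NRP + HOPE 2 h, where pig 34 exceeded every 24 h heart. The log2 fold change was 3.71 ± 0.72 against Group 2 and 1.06 ± 0.72 against Group 3 (limma, unadjusted p = 0.000154 and 0.161), so that its p did not pass against Group 3. Without pig 34 the gene passed the adjusted threshold (2.92; limma, adjusted p = 0.0222). TIPARP had 27.2, 77.7 and 60.6 TPM after 24 h, 8.36, 9.26 and 5.76 TPM in NRP + SCS 2 h and 14.7, 32.3 and 31.8 TPM in No NRP + HOPE 2 h. Its order was Group 2, then Group 3, then Group 1, with pig 27 among the Group 3 hearts. The log2 fold changes were 2.57 and 1.0 against Groups 2 and 3 (limma, adjusted p against the mean of both groups = 0.142). NQO1, a target shared with NRF2, was at 0.48 ± 0.29 on the log2 scale.

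Interferon-stimulated genes had negative fold changes in 20 of 21 members tested, against 60.3% of all genes, with a median of -0.46, and this rested on 1 heart. In 20 of the 21 genes the highest of all 9 values was that of pig 34 of Group 3. The median was 0.01 against NRP + SCS 2 h and -0.98 against No NRP + HOPE 2 h, and without pig 34 it was -0.04, with 11 of 21 members negative, against 53.5% of all genes. ISG20, an exonuclease active on viral RNA, had 1.22, 2.59 and 4.11 TPM after 24 h, 3.84, 7.57 and 2.22 TPM in NRP + SCS 2 h and 4.30, 9.98 and 53.2 TPM in No NRP + HOPE 2 h. USP18, which removes ISG15 from proteins, had 7.77, 16.5 and 15.2 TPM, 20.2, 16.9 and 18.7 TPM and 19.7, 26.3 and 117 TPM in the same order. All 24 h hearts lay below all 2 h hearts in USP18, with pig 28 (16.5 TPM) just below pig 25 (16.9 TPM). ISG20 and USP18 were the 2 members with an unadjusted limma p under 0.05, against 3.00% of all genes lower. The number was 9 without pig 31, 0 without pig 27 and 1 without any 1 of pigs 25, 28 and 30. It was also 0 with no filter on low values and with 1 mean for all 2 h hearts.

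Lists of energy metabolism and housekeeping held few members past even the unadjusted threshold. Of 24 fatty acid oxidation genes, 26 of glycolysis and the TCA cycle, 13 mitochondrially encoded and 17 cytosolic ribosomal protein genes, 18 proteasome genes and 20 genes of the hypoxia-inducible factors, 0 had an unadjusted limma p under 0.05, against 2.16% of all genes higher and 3.00% lower. Some were past it under alternatives, up to 3 higher without pig 27 in fatty acid oxidation, 2 lower without pig 30 in glycolysis and the TCA cycle, 2 higher without pig 25 among the hypoxia-inducible factor genes, and 3 lower with array weights among the 17 ribosomal protein genes, where 12.4% of all genes were lower. Their median log2 fold changes were 0.09, 0.12, -0.01, -0.06, -0.09 and -0.05. The signs of all 6 lists moved with single hearts. Without pig 30, where 80.1% of all genes were negative, the fold change was negative in 21 of 24 fatty acid oxidation genes, 23 of 26 genes of glycolysis and the TCA cycle, 16 of 17 ribosomal protein genes and 17 of 18 proteasome genes, and positive in 12 of 13 mitochondrially encoded genes. With all hearts, the numbers in the same order were 8, 6, 10, 14 and 6. Without pig 27, 5 of 18 proteasome genes were negative and 3 of 13 mitochondrially encoded genes positive, while 1 of these 13 was positive without pig 28. Hypoxia-inducible factor genes were negative in 12 of 20 members with and without pig 30 and in 4 without pig 27. Of 27 nuclear genes of the respiratory chain, UQCRC2, a core protein of complex III, was past the unadjusted threshold, at 1.26 ± 0.35. It had 60.9, 65.0 and 116 TPM after 24 h and 23.2 to 81.6 TPM after 2 h, where pig 25 at 81.6 TPM lay among the 24 h hearts. Of those 27 genes, 9 had a negative fold change, and 24 without pig 30. Heat shock genes other than DNAJB1 (16 tested) and cold-inducible RNA-binding and splicing genes (10 tested) gave 0, against the same shares of all genes. Without pig 27, 1 of the 17 heat shock genes was higher. In the cold-inducible list, 2 were lower with no filter on low values and with mitochondrially encoded genes left out, and 1 without any 1 of pigs 25, 30 and 31. That list had a median of -0.29 and negative fold changes in 9 of 10 members, against 60.3% of all genes. Among them, CLK1, a kinase of splicing factors, was at -0.54 ± 0.26 and the splicing factor SRSF11 at -0.42 ± 0.22. Of 13 p53 and apoptosis genes tested, 9 had a negative fold change, and 1, the death receptor FAS, was higher at an unadjusted limma p under 0.05 (0.62 ± 0.28), against 2.16% of all genes. That number was 0 without any 1 of pigs 25, 28, 29, 31 and 33.

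**Figure D5:**
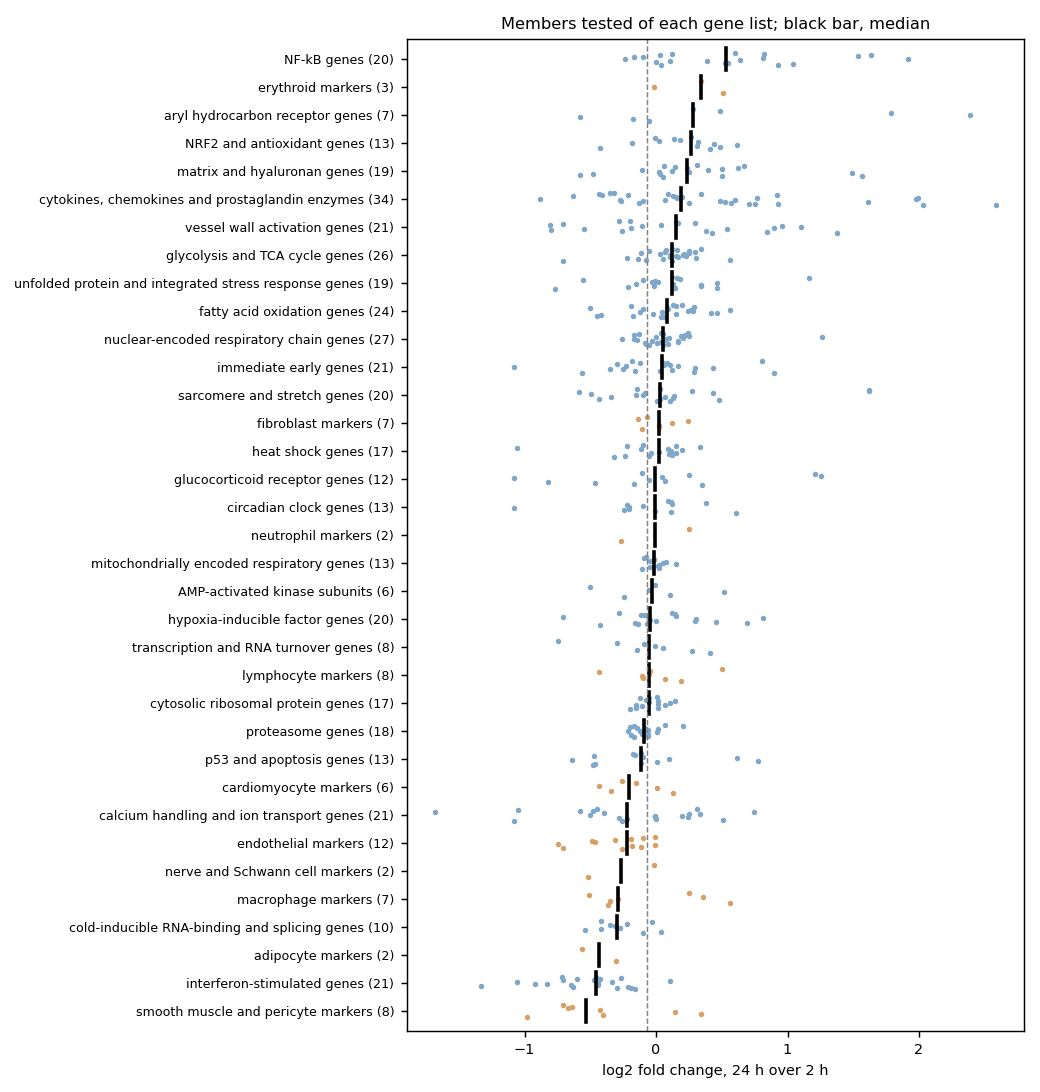
Log2 fold change of the 24 h hearts over the 2 h hearts for each member tested (dots; number in brackets) of 25 pathway lists (blue) and 10 cell type marker lists (orange). Lists are ordered by their median (black bar), with the median of all genes tested (-0.07) as a dashed line, and the NF-kB genes have the highest median (0.53) and the smooth muscle and pericyte markers the lowest (-0.53).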

How the data were processed

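Apex biopsies of 9 porcine hearts were sequenced, 3 in each of 3 labelled groups. According to the methods and the submitters' processing notes, the authors trimmed reads with Trimmomatic 0.36, aligned them with STAR 2.5.2b, counted them with featureCounts of Subread 1.5.2 and deposited TPM values; the genome build is not given in the sources used here. TPM divide out gene length and total, so that read depth is unknown, and a few abundant mitochondrially encoded genes set the scale of all others. ERCC spike-in was added, but 0 such rows are listed. A further 9 columns were not tied to a sample and not used. Symbols came from the table for 13143 genes and by ID from a reference table for 754, and 11252 genes had none.

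Log2(TPM + 1) was fitted with limma 3.58.1 in R 4.3.3 (lmFit, contrasts.fit, eBayes with trend), with 1 mean per group, for genes with TPM of 1 or more in 3 or more hearts. The model was tested on simulated data. Tests were two-sided with Benjamini-Hochberg adjustment over all genes tested. The thresholds were a p of 0.05 and a log2 fold change of 1 in absolute value. A difference from both groups was taken by the larger of both p-values. The authors used DESeq2 on counts, which were not used here. Single values were compared by exact permutation over the 84 divisions of 9 hearts into 3 and 6 (scipy 1.17.1). As 1 biopsy was taken per pig, the spread is between pigs. The 35 gene lists hold genes by symbol from general knowledge. Members and lists were chosen with earlier results of these data known, and no list was tested as a set. Genes could be named when called at an adjusted p, when among the 15 per direction with a symbol, the smallest p and both folds, when among the 4 list members with the largest fold or with an unadjusted p under 0.05, or when named in an earlier account; RELA, TNF and NFKBIA were chosen after their values were seen. Alternatives were a pseudocount of 0.1, no filter, a mean TPM of 5 or more, median-of-ratios and quantile scaling, mitochondrially encoded genes left out, 1 mean for all 2 h hearts, eBayes without trend, robust eBayes, array weights, each heart left out, and, chosen after seeing the data, short RNA loci left out.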

Additional observations from a re-analysis of the deposited data

Results flagged for a closer look

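In 3 of the genes named, the fold change of the 24 h hearts against No NRP + HOPE 2 h differed from that against NRP + SCS 2 h, by a test of the difference itself, which is that of the groups stored for 2 h (limma, No NRP + HOPE 2 h minus NRP + SCS 2 h). It was 2.72 on the log2 scale for HAS1 (adjusted p = 0.021), 2.20 for DNAJB1 (adjusted p = 0.0228) and -2.295 for PRKAG2 (adjusted p = 0.021), where the adjustment is limma's Benjamini-Hochberg over all 11782 genes tested, and in all 3 the 3 hearts of Group 2 and the 3 of Group 3 did not overlap. Over all genes, 6 passed this threshold with the same fold. For these genes the mean of the 2 h hearts is no level that either group had. Groups of 3 hearts were not searched for outlying hearts.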

How the results depend on the processing

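Read depth is unknown from TPM, and each group holds 3 hearts. No paired analysis was possible because no pig is shared between groups and the replicate numbers are pig numbers. At the adjusted threshold, 2 genes were higher and 0 lower, against 0 and 0 with a pseudocount of 0.1, 4 and 1 with a mean TPM of 5 or more (fewer genes tested), 1 and 0 under either scaling (median-of-ratios or quantile) and when mitochondrially encoded genes were left out, 6 and 2 with robust eBayes, 13 and 11 with array weights, 7 and 1 with short RNA loci left out, and 0 to 7 and 0 to 3 over the hearts left out. At the unadjusted threshold with the fold, 118 were higher and 81 lower, against 193 lower with a pseudocount of 0.1, 63 and 49 with a mean TPM of 5 or more, 52 lower with median-of-ratios scaling, 141 lower without the mitochondrially encoded genes, 233 lower with array weights, and 92 to 246 higher and 70 to 196 lower over the hearts left out. The 608 genes at an unadjusted p under 0.05 became 331 with a mean TPM of 5 or more, 1074 and 1060 with median-of-ratios and quantile scaling, 972 without the mitochondrially encoded genes, 1813 with array weights and 372 to 1200 over the hearts left out. Against both groups alike, the 1 adjusted call became 0 with a pseudocount of 0.1 and with a mean TPM of 5 or more, 2 with array weights and 0 to 2 over the hearts left out. The 53 higher and 28 lower became 69 lower with a pseudocount of 0.1, 27 higher with a mean TPM of 5 or more, 16 lower with either scaling, 52 lower without the mitochondrially encoded genes, 97 lower with array weights, and 45 to 115 higher and 22 to 63 lower over the hearts left out; of the 81 genes, 66 were shared with median-of-ratios scaling and 50 with pig 30 left out. The hearts lay apart in 235 genes higher with median-of-ratios scaling, 216 higher and 256 lower with quantile normalization, 105 higher and 336 lower without the mitochondrially encoded genes, and 81 to 679 higher and 192 to 1505 lower over the hearts left out. NF-kB genes higher at an unadjusted p under 0.05 numbered 6 to 11 and cytokine list genes 5 to 11 over the hearts left out. Over the hearts left out, the median log2 fold change was 0.39 (without pig 28) to 0.68 (without pig 27) for the NF-kB list, 0.01 (without pig 30) to 0.44 (without pig 27) for the cytokine list and -0.27 (without pig 30) to 0.09 (without pig 27) for all genes. HAS1, at 0.06, changed sign with array weights (-0.00397) and over the hearts left out (-0.1379 to 0.3594). Where not named, the cause was not tested.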
